A study of Mus musculus with 7 samples.

Results

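The genes described here are Hmox1, Nqo1, Gclc, Gclm, Txnrd1, Srxn1, Slc7a11 and Prdx1, which are textbook targets of the transcription factor NRF2, and Fth1 and Ftl1, which encode the heavy and light chains of ferritin. They were picked by gene symbol, and all 10 were found among the 57126 genes of the expression table, 21643 of which are protein-coding. The transcripts were measured by RNA-seq in 4T1 cells that expressed mCherry and were sorted for it from tumors of the mammary fat pad. This line models triple-negative breast cancer in mice. All mice were BALB/c, the strain 4T1 comes from, and all carried the same mCherry line. The PBS group (3 libraries) had received 100 µL of phosphate-buffered saline in the fat pad 7 days before the tumor cells, and the Botox group (4 libraries) 0.3 units of Botox in the same volume and at the same time. Each library came from its own mouse, per the labels. Not given in the sources used here were mouse age, the time between tumor cell injection and sorting, and whether the mCherry line is 1 clone. The comparison asks how transcripts of the cancer cells differed after Botox, used to denervate the site chemically before tumor growth. The values used here hold no measure of nerve loss.

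NRF2, encoded by Nfe2l2, is held low in unstressed cells because KEAP1 hands it to the ubiquitin machinery. Oxidants and electrophiles block that step, and NRF2 then pairs with small MAF proteins and binds the antioxidant response element, where BACH1 can act as a repressor. Its targets make glutathione (GCLC and GCLM, the catalytic and modifier subunits of glutamate-cysteine ligase), import cystine for it (SLC7A11), run the thioredoxin system (TXNRD1, PRDX1, SRXN1), reduce quinones (NQO1), break down heme (HMOX1) and store the iron so released (FTH1, FTL1). Ferritin is controlled a second time after transcription, since iron regulatory proteins bind a hairpin in the 5′ end of its mRNAs and hold back their translation when iron is short.

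The core of the antioxidant response element was searched as TGACNNNGC on both strands in RefSeq promoter windows of GRCm38.p6, each reaching from 250 bases before to 50 bases after a gene's start. Windows were found for 8 of the 10 genes and none was found for Hmox1 and Gclc. These genes had 11 windows, and 4 of them, in 4 genes, held a match, against 12.4% of all 32851 windows. These 4 sites are shown because they are where the listed members carry the motif near their start. Capitals mark the match, and all are written on the minus strand, opposite to the gene, with coordinates of GRCm38.p6.

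Gclm, chr3:122245413-122245441: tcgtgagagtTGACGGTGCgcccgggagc

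Txnrd1, chr10:82859104-82859132: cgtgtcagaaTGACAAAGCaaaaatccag

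Srxn1, chr2:152105542-152105570: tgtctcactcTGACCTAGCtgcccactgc

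Prdx1, chr4:116685456-116685484: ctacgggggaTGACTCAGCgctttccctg

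The centre of the match lay 130 bases before the start in Gclm, 88 before it in Txnrd1, 129 before it in Prdx1 and 32 bases after it in Srxn1. The Prdx1 match overlapped TGANTCA, the motif of AP-1 factors, which occurred at 2 positions in its window, at 2 in that of Srxn1 and in 7.81% of all windows. TGANTCA was absent from the windows of Nqo1, Gclm, Txnrd1, Slc7a11, Fth1 and Ftl1. The ferritin mRNAs share the iron responsive element, shown here from the GENCODE M21 transcripts with the 6 bases of the loop in capitals.

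Fth1: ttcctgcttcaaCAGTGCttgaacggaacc

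Ftl1: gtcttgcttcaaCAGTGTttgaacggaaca

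The loop began at base 99 of the Fth1 transcript and at base 90 of the Ftl1 transcript. The same pattern, an unpaired C, 5 bases that pair across the loop and CAGTGN between them, was found in 0.961% of 58797 protein-coding transcripts. RNA-seq reads the mRNA level and carries no information on the translation that this element controls.

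The deposited unit is TPM, an abundance per length with a fixed total in each library. In this table the length is the whole genomic span, introns included. The median of 7241 tested protein-coding genes lay at a log2 fold change of -0.45 in Botox against PBS. Levels are given on a protein-coding scale, on which each library's TPM was divided by the median ratio of its protein-coding genes to their average over the libraries. On that scale the median log2 fold change was -0.013. Fold changes refer to log2(value + 1), which understates the change of low genes.

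Estimated depth was 8.56 to 13.6 M reads per library. Botox 2 and Botox 4 stood apart, with 3.92% and 3.48% of their detected genes at 1 to 4 reads against 14.8% to 24.5% in the other libraries, and Botox 4 had the fewest genes above 0, 15601 against up to 25120. The 6 markers of tumor epithelium summed to 168 to 201 on the protein-coding scale after PBS and 149 to 213 after Botox. The 14 macrophage markers summed to 705 to 1037 after PBS and 224 to 1249 after Botox, so transcripts typical of macrophages were present in cells sorted as mCherry-positive. Of the 12 macrophage markers tested, 11 had a negative log2 fold change on this scale (median -0.17), against 52.3% of tested protein-coding genes. The linear-model test used below (limma) called 0 of them. Values without Botox 2 and Botox 4 are given for the members, their ratios and the regulators and list genes named where leaving them out turned a direction or moved a fold change by over 1.5 times. In such bulk samples fewer cells of a type and less RNA per cell cannot be told apart.

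Botox before tumor growth was followed by no called change in any of the 10 genes. Of the members, 7 passed the filter of at least 1 TPM in 3 libraries, and limma with Benjamini-Hochberg adjustment over 11260 genes called 0 of them, at a smallest adjusted p of 0.93. Over all tested genes it called 0.00888% higher and 0% lower. At an unadjusted p of 0.05 limma called 0 of the 7 on the protein-coding scale, where 2.09% of protein-coding genes were higher and 1.10% lower. On the deposited scale 1 of them, Gclm, was below that level, where 0% of protein-coding genes were higher and 4.97% lower. From estimated reads, which let all 10 be tested, limma called 0 of 10, as it did of all 16930 genes, and the smallest unadjusted p, that of Gclm, was 0.0605. The median log2 fold change of the 7 was -0.0023, next to -0.013 for all tested protein-coding genes. The PBS and Botox libraries overlapped in all 10 genes on the protein-coding scale, on which 3.60% of protein-coding genes were lower in every Botox library than in every PBS library and 4.72% higher.

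**Figure D1:**
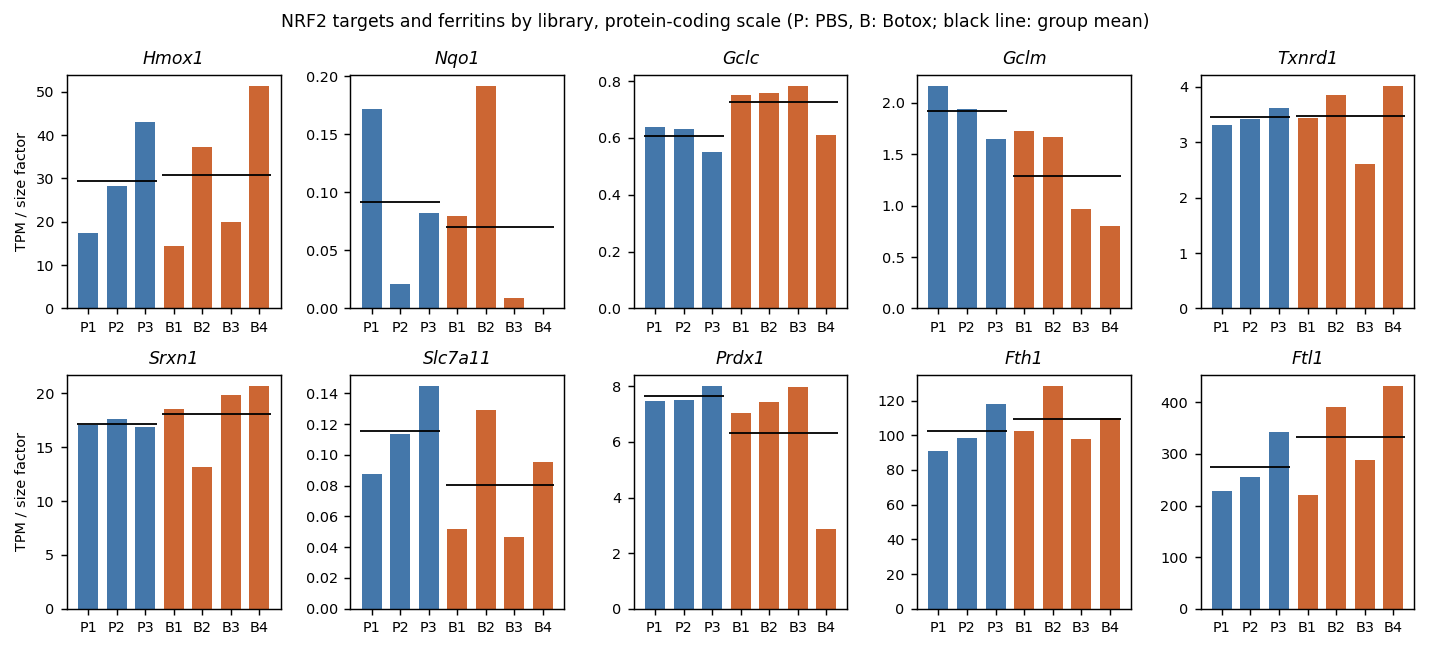
Level of each gene in each library on the protein-coding scale (deposited TPM divided by the size factor of the library, linear axes from 0), with PBS libraries P1 to P3 in blue, Botox libraries B1 to B4 in orange and black lines at the group means. Hmox1 ran from 14.5 to 51.4 within the Botox group, Prdx1 was low in B4 alone at 2.89, and in no panel do the groups separate.

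To compare genes with each other, levels were recomputed per exon length and given in ppm of the summed level of nuclear protein-coding genes. This scale has a fixed total in each library, so it serves to compare genes and not the groups. Hmox1, for example, was lower after Botox in ppm, but averaged 29.5 after PBS and 30.8 after Botox on the protein-coding scale. The light chain gene Ftl1 led in all 7 libraries, at 1584 ± 308 ppm in the PBS libraries (SD, n = 3) and 1634 ± 353 in the Botox libraries (SD, n = 4), which placed it between rank 33 and rank 63 of 21539 protein-coding genes. Fth1, at 528 ± 60.4 and 502 ± 129, and Hmox1, at 464 ± 192 and 392 ± 133, came next, and their ranges over the libraries overlapped. Prdx1 (153 ± 3.60 and 121 ± 61.1), Srxn1 (142 ± 5.15 and 132 ± 41.1) and Txnrd1 (124 ± 2.57 and 108 ± 22.8) formed a middle group whose ranges overlapped one another and lay below those of Hmox1. Gclm (30.6 ± 4.93 and 19.1 ± 9.44), Gclc (25.7 ± 2.66 and 28.0 ± 9.47) and Slc7a11 (18.1 ± 4.03 and 10.8 ± 5.27) also overlapped. Nqo1 was the lowest, at 3.56 ± 3.01 and 2.58 ± 3.12, with ranks between 9720 and 16657. The iron storage and heme genes therefore stood well above the glutathione synthesis genes in these libraries, in both groups.

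Among the glutathione genes, Gclm (ENSMUSG00000028124, plus strand, chr3:122039206-122064381 in mm39), the modifier subunit that raises the efficiency of glutamate-cysteine ligase, was at 2.17, 1.94 and 1.65 on the protein-coding scale in PBS 1 to 3 and at 1.73, 1.67, 0.968 and 0.80 in Botox 1 to 4. Botox 3 and Botox 4 were the lowest, while Botox 1 and Botox 2 lay just above PBS 3. The log2 fold change was -0.37 ± 0.19 (SE; limma adjusted p = 0.93), with a 95% interval of 0.565 to 1.06 for the fold. From estimated reads it was -0.64 ± 0.30 (SE; limma adjusted p = 0.91; interval 0.404 to 1.02), and with a pseudocount of 0.1 or 5 in place of 1 it was -0.60 or -0.14. On the protein-coding scale it was -0.36 without Botox 2 and Botox 4, and 4.74% of tested protein-coding genes had a lower fold change.

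Gclc (ENSMUSG00000032350, plus strand, chr9:77661817-77701767 in mm39), the catalytic subunit, had a higher mean after Botox. It was at 0.640, 0.632 and 0.550 in PBS 1 to 3 and at 0.753, 0.757, 0.784 and 0.611 in Botox 1 to 4. The first 3 Botox libraries were above every PBS library and Botox 4 lay within the PBS range. Gclc, with a span of 39951 bases, did not pass the TPM filter. Read from estimated reads, which numbered 109 to 240 per library, its log2 fold change was 0.25 ± 0.21 (SE; limma adjusted p = 0.91).

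The ratio of the 2 subunits within a library does not depend on how the libraries are scaled. Gclc over Gclm was 0.295, 0.326 and 0.334 in PBS 1 to 3 and 0.435, 0.454, 0.810 and 0.763 in Botox 1 to 4. Every Botox library exceeded every PBS library, by 1.86-fold on average (a difference of 0.89 on the log2 scale; two-sided exact permutation p = 0.0571, the smallest that 35 arrangements allow, and 0.286 after adjustment over 5 ratios). Per exon length the ratio was 0.783 to 0.885 after PBS and 1.15 to 2.15 after Botox. Whether it lies above 1 depends on the length used, since by whole span, as above, it was at most 0.810. Which subunit transcript was the more abundant is therefore uncertain. Without Botox 2 and Botox 4 the difference was 0.90, and leaving out each library in turn gave 0.74 to 1.04. The design cannot reach 0.05 for a single ratio, and the 2 genes were chosen with earlier results known.

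**Figure D2:**
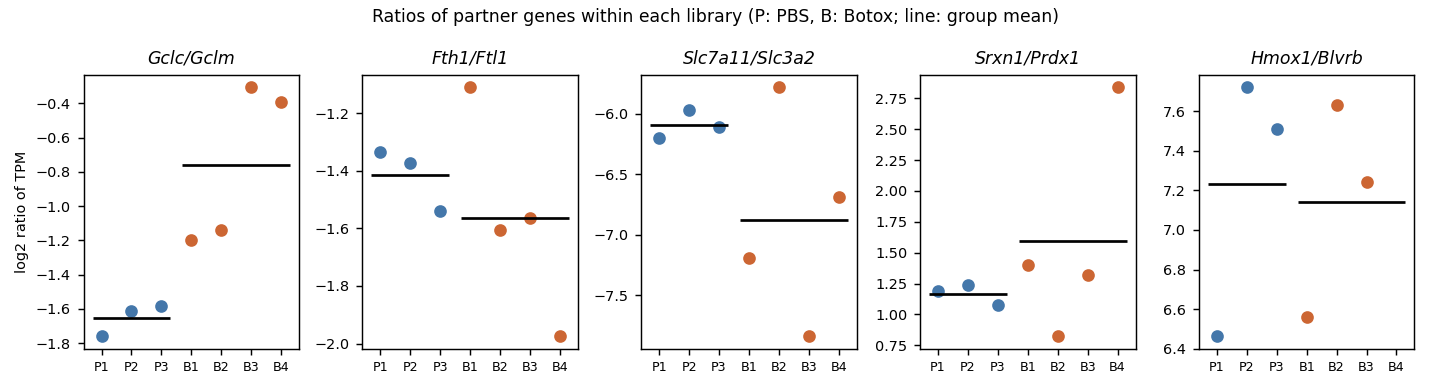
Log2 ratio of deposited TPM of partner genes in each library, PBS libraries P1 to P3 in blue and Botox libraries B1 to B4 in orange, with black lines at the group means. The groups separate in Gclc/Gclm and overlap in the other 4 ratios; Hmox1/Blvrb has no point for B4, where Blvrb had 0 reads.

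Slc7a11 (ENSMUSG00000027737, minus strand, chr3:49846975-50398063 in mm39), the light chain of the cystine-glutamate antiporter, was at 0.0879, 0.114 and 0.145 in PBS 1 to 3 and at 0.0517, 0.129, 0.0464 and 0.0951 in Botox 1 to 4. Botox 1 and Botox 3 were the lowest, whereas Botox 2 lay between PBS 2 and PBS 3 and Botox 4 between PBS 1 and PBS 2. The gene spans 551089 bases, so these low TPM values rest on 182 to 838 estimated reads per library. Its log2 fold change from estimated reads was -0.62 ± 0.35 (SE; limma adjusted p = 0.91). Relative to the median of protein-coding genes it was -0.53, and -1.18 without Botox 2 and Botox 4. In the fit without these libraries limma gave an unadjusted p of 0.000868 and an adjusted p of 0.285 over all genes. The size of the difference therefore rests on which Botox libraries enter. The sum of 14 macrophage markers was also lowest in Botox 1 and Botox 3, at 224 and 617, and was 1249 and 1235 in Botox 2 and Botox 4, and its part in the Slc7a11 level was not tested. Its partner Slc3a2, the heavy chain that carries the transporter to the membrane, was at 7.84 ± 1.87 in the PBS libraries (SD, n = 3) and 8.77 ± 1.70 in the Botox libraries (SD, n = 4). The ratio Slc7a11 over Slc3a2 was 0.0136, 0.0160 and 0.0145 after PBS and 0.00683, 0.0182, 0.00437 and 0.00969 after Botox, a difference of -0.79 on the log2 scale (two-sided exact permutation p = 0.229, adjusted 0.571). Only Botox 2 was above the PBS libraries, and the difference was -1.43 without Botox 2 and Botox 4.

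The 3 genes whose pattern over the 7 libraries was most like that of Slc7a11, among 3931 protein-coding genes with at least 1 TPM throughout, were Cxcl2 (Pearson r = 0.99), Sdcbp (0.98) and Uhmk1 (0.97). Cxcl2, a chemokine that draws neutrophils, was at 125, 157 and 243 in PBS 1 to 3 and at 44.7, 199, 49.7 and 151 in Botox 1 to 4. These correlations describe 7 points that share library and scaling, and are the highest found among all genes searched. Like Slc7a11, Cxcl2 was lowest in Botox 1 and Botox 3.

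In the thioredoxin branch, Txnrd1 (ENSMUSG00000020250, plus strand, chr10:82669785-82733546 in mm39), the reductase that recharges thioredoxin with NADPH, was nearly level. It was at 3.32, 3.42 and 3.62 in PBS 1 to 3 and at 3.44, 3.85, 2.61 and 4.02 in Botox 1 to 4, with Botox 3 the lowest. The log2 fold change was -0.0023 ± 0.15 (SE; limma adjusted p = 0.998), and the 95% interval of the fold ran from 0.783 to 1.27. Srxn1 (ENSMUSG00000032802, plus strand, chr2:151947436-151953296 in mm39), sulfiredoxin, which repairs overoxidised peroxiredoxins, was at 17.0, 17.7 and 16.9 after PBS and at 18.6, 13.1, 19.9 and 20.7 after Botox. Here 3 of the Botox libraries were above the PBS libraries and Botox 2 below them, and the log2 fold change was 0.05 ± 0.17 (SE; limma adjusted p = 0.98). Without Botox 2 and Botox 4 Txnrd1 was at -0.17 and Srxn1 at 0.14.

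Prdx1 (ENSMUSG00000028691, plus strand, chr4:116542741-116558019 in mm39), the abundant cytosolic peroxiredoxin, was at 7.46, 7.49 and 8.01 after PBS and at 7.02, 7.44, 7.98 and 2.89 after Botox. Botox 4 stood far below the other libraries, which lay within 7.02 to 8.01. The log2 fold change was -0.31 ± 0.30 (SE; limma adjusted p = 0.93) and -0.03 without Botox 4. Srxn1 over Prdx1 was 2.28, 2.36 and 2.11 after PBS and 2.65, 1.77, 2.49 and 7.17 after Botox, with 7.17 in Botox 4 and overlapping groups (difference 0.43 on the log2 scale; two-sided exact permutation p = 0.571, adjusted 0.714). It was 0.19 without Botox 2 and Botox 4.

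Nqo1 (ENSMUSG00000003849, minus strand, chr8:108114857-108129838 in mm39), the quinone reductase often used as the marker target of NRF2, was close to the limit of detection. Its estimated reads were 18, 3 and 13 in PBS 1 to 3 and 9, 21, 1 and 0 in Botox 1 to 4. By counting error alone, a count of 0 in Botox 4 allows up to about 3 reads, or 0.0195 TPM there. This takes each read as its own molecule. Only 3.48% of detected genes in Botox 4 were at 1 to 4 reads, and the limit there may be higher. The counts overlapped between the groups, and the log2 fold change from estimated reads was -0.93 ± 1.39 (SE; limma adjusted p = 0.92), so no difference was detectable at this depth. The log2 ratio of the group means on the protein-coding scale was -0.38, and -1.04 without Botox 2 and Botox 4. Nqo2, a related quinone reductase, had 281, 359 and 302 reads after PBS and 170, 174, 196 and 42 after Botox. Its 4 Botox values on the protein-coding scale were all below those after PBS, with means of 1.497 ± 0.252 (SD, n = 3) and 0.877 ± 0.333 (SD, n = 4), but limma did not call it (log2 fold change -0.43 ± 0.19 SE, adjusted p = 0.93). On that scale 3.60% of tested protein-coding genes were lower in every Botox library. Nqo2 was chosen for mention after its values were seen.

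Hmox1 (ENSMUSG00000005413, plus strand, chr8:75820249-75827217 in mm39) encodes heme oxygenase 1, which opens heme and frees its iron, and varied the most of the 7 tested members. It was at 17.3, 28.1 and 43.0 in PBS 1 to 3 and at 14.5, 37.3, 19.9 and 51.4 in Botox 1 to 4. The spread within the PBS group was 2.48-fold from lowest to highest and 3.54-fold within the Botox group, and the groups overlapped throughout. The log2 fold change was -0.013 ± 0.49 (SE; limma adjusted p = 0.998), and the 95% interval of the fold, 0.445 to 2.21, was the widest of the 7 tested members. Without Botox 2 and Botox 4 it was -0.69 (limma adjusted p = 0.61). The coefficient of variation was 43.7% after PBS and 54.7% after Botox, where counting error of its 759 to 3148 reads alone gives 2.26% and 2.76%. These counting errors take each read as its own molecule, and are too small where reads repeat a molecule. The within-group SD of Hmox1 on the log2 scale, 0.74, was larger than that of 96.5% of tested protein-coding genes, whose median was 0.22.

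**Figure D3:**
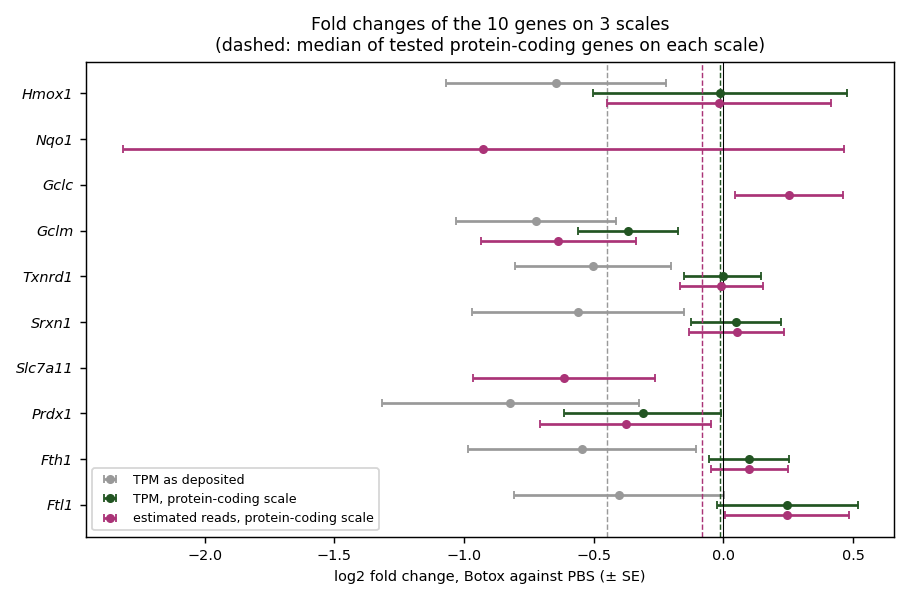
Log2 fold change (Botox against PBS, bars ± SE) of each gene on deposited TPM in grey, on the protein-coding scale in green and from estimated reads in purple, with dashed lines at the median of tested protein-coding genes on each scale. The grey points lie within -0.82 to -0.40, with only Ftl1 above the grey dashed line at -0.45. The green points lie within -0.37 to 0.25, and Nqo1 has the widest bar. Nqo1, Gclc and Slc7a11 have a purple point only.

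The genes most like Hmox1 over the 7 libraries, among 3930, were Cd14 (Pearson r = 0.996), Tgfbi (0.99) and Ppp1r3d (0.99). Cd14, the lipopolysaccharide co-receptor of monocytes and macrophages and 1 of the 14 macrophage markers, was at 61.4, 130 and 263 in PBS 1 to 3 and at 53.0, 203, 72.8 and 293 in Botox 1 to 4. Hmox1 and Cd14 put the libraries in the same order, from Botox 1, PBS 1 and Botox 3 at the low end to PBS 3 and Botox 4 at the high end. The sum of the 14 macrophage markers was 751, 705 and 1037 after PBS and 224, 1249, 617 and 1235 after Botox, and the markers used here included Marco, which was at 0 in all libraries. It was lowest in Botox 1, as Hmox1 was, and high in PBS 3, Botox 2 and Botox 4, where Hmox1 was also high. The sums of 4 dendritic and 5 fibroblast markers were highest in the same libraries. The dendritic sum was 9.74, 20.3 and 48.2 after PBS and 9.16, 37.5, 30.5 and 47.9 after Botox. The fibroblast sum was 3.10, 3.62 and 5.04 after PBS and 3.03, 3.80, 2.26 and 7.15 after Botox. Markers of red blood cells, which are rich in heme, summed to 4.16 to 14.7 after PBS and 3.77 to 34.0 after Botox, with Hbb-bt at 0 in all libraries. The part of any of these marker lists in the Hmox1 level was not tested.

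**Figure D4:**
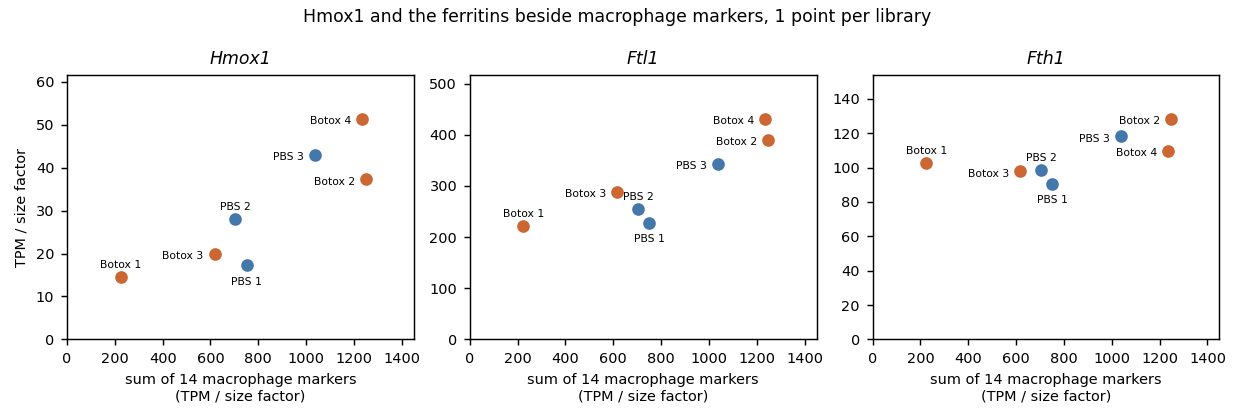
Level of Hmox1, Ftl1 and Fth1 (vertical axes, protein-coding scale, from 0) against the sum of 14 macrophage markers (horizontal axes, same scale), with 1 point per library, PBS in blue and Botox in orange. Hmox1 and Ftl1 are high in PBS 3, Botox 2 and Botox 4, the libraries with the highest marker sums (1037 to 1249), and Fth1 is highest in the same 3 libraries within a narrower range of 90.7 to 128. Sums of dendritic and fibroblast markers, not plotted, were highest in the same libraries.

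Blvrb, biliverdin reductase B, acts on the product of heme oxygenase and had 17 to 45 reads in 6 libraries and 0 in Botox 4. Over those 6 libraries Hmox1 over Blvrb differed by -0.09 on the log2 scale (two-sided exact permutation p = 0.9, where 0.1 is the smallest possible), and by -0.33 without Botox 2. Hmox2, the constitutive heme oxygenase, was at 0.639 ± 0.0443 in the PBS libraries (SD, n = 3) and 0.777 ± 0.319 in the Botox libraries (SD, n = 4), with coefficients of variation of 6.94% and 41.1%.

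The ferritin chains showed little separation between the groups. Fth1 (ENSMUSG00000024661, plus strand, chr19:9957962-9962462 in mm39), whose ferroxidase centre loads iron into the shell, was at 90.7, 98.4 and 118 in PBS 1 to 3 and at 102.5, 128, 97.8 and 110 in Botox 1 to 4. The ranges overlapped, and the log2 fold change was 0.10 ± 0.15 (SE; limma adjusted p = 0.96), with a 95% interval of 0.830 to 1.38 for the fold. It was -0.034 without Botox 2 and Botox 4. Ftl1 (ENSMUSG00000050708, minus strand, chr7:45107368-45109308 in mm39), the light chain that favours mineral growth inside the shell, was at 228, 255 and 343 after PBS and at 221, 390, 289 and 432 after Botox. Botox 2 and Botox 4 were the highest, and the log2 fold change was 0.25 ± 0.27 (SE; limma adjusted p = 0.94), turning to -0.11 without these libraries.

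Ftl1 has a near-identical copy, Ftl1-ps1, which the table lists as protein-coding and whose transcript matches that of Ftl1 at 906 of 910 aligned bases. More reads were counted at the copy than at Ftl1 in every library, 9590, 13327 and 18615 against 3105, 4698 and 6998 after PBS and 8601, 15081, 10658 and 10006 against 3222, 5535, 3990 and 3743 after Botox. The level of Ftl1 alone is therefore uncertain. With the reads of both summed, the log2 fold change was 0.18 (limma adjusted p = 0.91), against 0.25 for Ftl1 alone. The heavy chain copy Fth-ps2, with 80.91% identity, was at 2.77, 3.47 and 11.1 after PBS and at 5.68, 13.0, 1.36 and 22.1 after Botox. These values rest on only 10, 17 and 60 estimated reads in PBS 1 to 3 and 22, 49, 5 and 51 in Botox 1 to 4. Fth-ps2 was high in PBS 3, Botox 2 and Botox 4, the libraries in which Hmox1 was high.

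Heavy over light chain, a ratio known to vary between tissues, was 0.397, 0.386 and 0.344 in PBS 1 to 3 and 0.464, 0.329, 0.339 and 0.254 in Botox 1 to 4. These values are whole-span TPM of Fth1 over Ftl1 alone, without the reads counted at Ftl1-ps1. Their absolute size is therefore uncertain. Botox 1 was the highest library and Botox 4 the lowest, with a difference of -0.15 on the log2 scale (two-sided exact permutation p = 0.514, adjusted 0.714). It was 0.08 without Botox 2 and Botox 4. The nearest patterns to Fth1 over the 7 libraries were those of Zfp516 (Pearson r = 0.98), Rab43 (0.96) and Pip5k1c (0.95), again as a description of 7 points.

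On the deposited scale the same genes read lower after Botox, together with most others. All 7 tested members had a negative log2 fold change there, from -0.40 in Ftl1 to -0.82 in Prdx1, as did 97.3% of tested protein-coding genes. Relative to the median of -0.45, Gclm was -0.27 and Prdx1 -0.37, while Ftl1 was 0.05. Of the tested members, 3 (Gclm, Txnrd1 and Fth1) were lower in every Botox library than in every PBS library, where 28.8% of tested protein-coding genes were, and Slc7a11, which did not pass the filter, was so as well. Fth1, for example, was listed at 129, 120 and 152 TPM after PBS and at 109, 113, 116 and 47.7 TPM after Botox. None of these separations held on the protein-coding scale.

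Of the NRF2 regulators, Nfe2l2 itself was lower in every Botox library on both scales. Of tested protein-coding genes 3.60% were so on the protein-coding scale and 28.8% on the deposited scale. On the protein-coding scale Nfe2l2 was at 6.44, 6.52 and 6.29 in PBS 1 to 3 and at 4.89, 5.80, 4.56 and 5.14 in Botox 1 to 4. The fold change was small, -0.29 ± 0.12 on the log2 scale (SE), and limma did not call it (unadjusted p = 0.0469, adjusted p = 0.93). Keap1, the adaptor that marks NRF2 for degradation, was at 10.7 ± 0.154 in the PBS libraries (SD, n = 3) and 10.7 ± 1.99 in the Botox libraries (SD, n = 4). Bach1, the heme-sensitive repressor of Hmox1 and the ferritin genes, was at 4.30, 5.20 and 7.17 after PBS and at 4.57, 7.89, 3.31 and 10.4 after Botox, with no separation (log2 fold change 0.12 ± 0.36 SE; limma adjusted p = 0.98), and turned to -0.42 without Botox 2 and Botox 4. Without them Nfe2l2 was at -0.39 and Keap1 at 0.17 (limma adjusted p = 0.52 and 0.64). Bach1 and Hmox1 were both highest in Botox 4.

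The other regulators followed no single direction. Of 16 genes in this list 13 were tested, 0 were called by limma, 6 had a positive and 7 a negative fold change, and the median was -0.02. On the protein-coding scale 1 was lower and 1 higher in every Botox library, against 3.60% and 4.72% of tested protein-coding genes. Mafg, a small MAF partner of both NRF2 and BACH1, was at 37.7 ± 4.63 in the PBS libraries (SD, n = 3) and 53.6 ± 14.2 in the Botox libraries (SD, n = 4), higher in every Botox library by 0.47 ± 0.21 on the log2 scale (SE; limma, adjusted p = 0.93). Syvn1, an ubiquitin ligase of the endoplasmic reticulum that can also act on NRF2, was at 7.42 ± 1.76 and 10.5 ± 1.48 (log2 fold change 0.46 ± 0.18 SE; limma unadjusted p = 0.0394, adjusted p = 0.93).

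Of 31 further NRF2 target symbols, 29 matched the table and 11 were tested. None was called by limma, and 0 had an unadjusted p under 0.05. The median log2 fold change was -0.02, with 5 positive and 6 negative. Tkt, the transketolase of the pentose phosphate pathway, was higher in every Botox library (1.09 ± 0.0737 against 1.41 ± 0.246, SD, 3 and 4 libraries), at a log2 fold change of 0.20. Of the 11 tested, 1 was so, against 4.72% of tested protein-coding genes. On the deposited scale the groups overlapped and Tkt was at -0.13. Txn1, thioredoxin itself, was at 3.38, 3.89 and 3.31 in PBS 1 to 3 and at 3.82, 1.59, 3.62 and 0.240 in Botox 1 to 4. It was low in Botox 2 and Botox 4 only, and its log2 fold change of -0.64 became 0.056 without them. Osgin1, an oxidative stress-induced growth inhibitor, was at 4.25 ± 0.146 and 3.73 ± 0.411, at -0.15.

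The glutathione list had 14 of 28 genes tested and a median of -0.01. Its genes of smallest p were Gpx8 (-0.42), a glutathione peroxidase of the endoplasmic reticulum, Ggct (0.31), an enzyme of glutathione breakdown, and the secreted peroxidase Gpx3 (-0.37). The thioredoxin and peroxiredoxin list had 14 of 19 tested and a median of 0.0041, led by Selenow (0.51), Txnl1 (-0.19) and Txndc17 (-0.55, and 0.011 without Botox 2 and Botox 4). In the superoxide and peroxide list 9 of 14 were tested, with a median of -0.03. Cyba, a subunit of NADPH oxidases, was at -0.19 and Park7 at 0.16. Limma called 0 genes in each of these lists, and 0 had an unadjusted p under 0.05.

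The iron list, covering uptake, storage and export, had 13 of 24 genes tested, and 11 of the 13 had a negative fold change against 52.3% of tested protein-coding genes. The values were small, from -0.22 to 0.12, with a median of -0.08, none was called by limma and 0 had an unadjusted p under 0.05. On the deposited scale all 13 were negative, and without Botox 2 and Botox 4, where 12 of them were tested, 7 were. The transferrin receptor Tfrc was at 4.48 on average after PBS and 4.00 after Botox (log2 fold change -0.14), and Ncoa4, the receptor that delivers ferritin to lysosomes, at 7.21 and 6.69 (-0.09). Ireb2, an iron regulatory protein that binds the hairpin shown above, was at 2.39 ± 0.377 and 1.99 ± 0.358 (-0.18). Pcbp2, a chaperone that delivers iron to ferritin, was at -0.13, and Slc39a14, an importer of zinc and iron, at 0.09.

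Of the heme list 11 of 21 genes were tested, with a median of 0.10, 6 positive and 5 negative, and 0 had an unadjusted p under 0.05. Alas1, which makes the first committed precursor of heme, was at 0.984 ± 0.0577 and 1.67 ± 0.618 (log2 fold change 0.40; limma adjusted p = 0.93), and Urod of the same pathway was at 0.22. The ferroptosis list had 11 of 20 tested and a median of 0.09. Slc1a5, a glutamine carrier, was higher in every Botox library (5.79 ± 0.988 against 7.99 ± 1.09; log2 fold change 0.41 ± 0.16 SE; limma unadjusted p = 0.0385, adjusted p = 0.93). Of the 11 tested, 1 was higher in every Botox library, against 4.72% of tested protein-coding genes. On the deposited scale the groups overlapped for Slc1a5, which was at -0.15. Acsl4, which loads membranes with polyunsaturated lipids, was at -0.45 and its relative Acsl3 at -0.32. Limma called 0 genes in either list. Leaving out Botox 2 and Botox 4 moved the median of the superoxide and peroxide list from -0.03 to -0.44, with 7 of 9 genes negative, and kept the medians of the other 7 lists between -0.065 and 0.14. Among the genes named from the lists it also brought Gpx8 to -0.11, Acsl3 to -0.15, Mafg to 0.29, Osgin1 to -0.070, Park7 to 0.071, Urod to 0.14, Ncoa4 to -0.14 and Tfrc to -0.034.

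**Figure D5:**
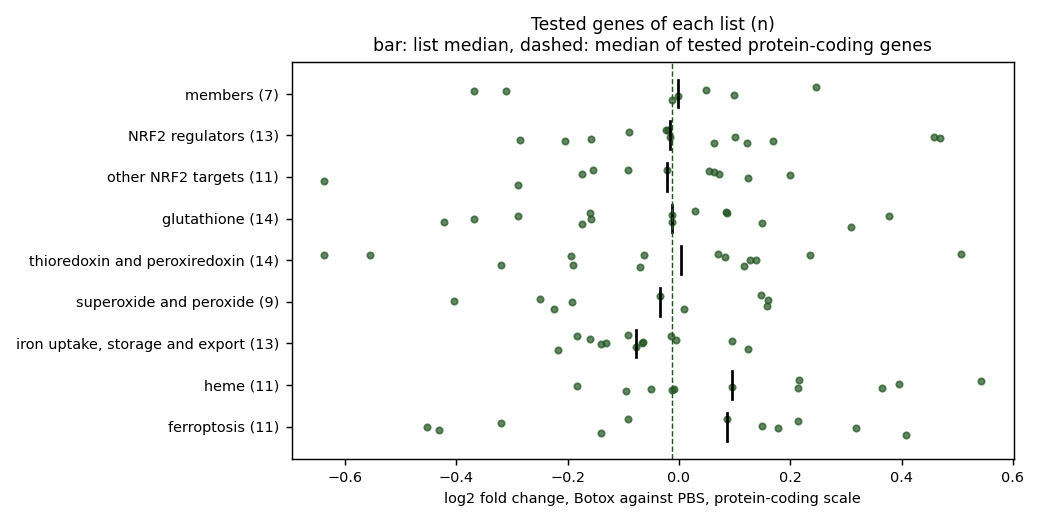
Log2 fold change (Botox against PBS, protein-coding scale) of each tested gene in the 10-gene set (members) and the 8 related lists, 1 point per gene with the number tested in brackets, black bars at list medians and a dashed line at the median of tested protein-coding genes. List medians lie between -0.08 and 0.10, and points fall on both sides of the dashed line in each list.

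For 227 KEGG sets the authors' deposited table gives a ratio of B to C, read here as Botox to control. In the authors' deposited table the ratio was 0.726 for ferroptosis (20 genes), 0.746 for glutathione metabolism (22 genes), 0.743 for mineral absorption (14 genes) and 0.670 for porphyrin metabolism (11 genes). All 227 ratios of the authors' deposited table were below 1, from 0.540 to 0.837 with a median of 0.683. Counted from the highest ratio, these sets ranked 47, 31, 33 and 132 in the authors' deposited table. The 4 sets were thus low together with every other set, as the members were on the deposited scale.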

How the data were processed

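RNA was measured in 3 PBS and 4 Botox libraries, grouped by sample title, a treatment label being the same for all. The authors deposited TPM with a constant of 0.001 added to each value, and the deposited length equals stop minus start, introns included. Per the submitters' processing notes, the tools were Bowtie2 2.2.5, SAMtools and DESeq2, with mm39 as the genome. Not given in the sources used here were the counter, its strand setting and its handling of multimapped reads. The authors' deposited gene set table holds a ratio, a signed fold change score, p-values and the number of genes in each set.

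The members and lists were chosen with earlier results of these data known. Genes that reached 1 TPM in 3 or more libraries (11260) were tested on log2(TPM / size factor + 1) with limma 3.58.1 (trend, two-sided, Benjamini-Hochberg at 0.05) in R 4.3.3, with the group as the only term. TPM was divided by median-of-ratios size factors of protein-coding genes, 0.435 to 1.43. The same fit was made on deposited TPM. Reads were estimated by multiplying TPM by span and dividing by the step of 1 read. Of values below 20 reads, 89.3% to 90.7% were whole to within 0.1. Since not all were, limma and no count model was used on them (genes with at least 10 reads in 3 libraries, 16930 tested), an alternative chosen after seeing the data. Floors and p-values cover counting error or spread between libraries only, and these reads, lacking molecular identifiers, may repeat a molecule. Levels per exon length used the merged exon length of GENCODE M21, found for 21539 of 21643 protein-coding genes. Ratios were compared with exact permutation tests in Python 3.11.15. Of 244 list entries 242 matched a symbol. The text names all members, their partners and copies, Nfe2l2, Keap1, Bach1, the 3 genes of smallest p in each list and the 3 genes most correlated with Hmox1, Slc7a11 and Fth1, apart from Nqo2, Hmox2, Tfrc and Ncoa4, named after values were seen. Not every gene this rule picks is reported here. The limma code was tested on simulated data. Alternatives covered scaling, pseudocount, filter, array weights, a replicate block and libraries left out.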

Additional observations from a re-analysis of the deposited data

Results flagged for a closer look

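Within the Botox group, Slc7a11 per exon length was 8.42, 18.7, 7.82 and 8.29 ppm in Botox 1 to 4, so that Botox 2 stood far from the other 3 (the gap to its nearest neighbour was 0.945 of the group's range). Botox 2 was within the PBS range of 14.2 to 22.3. On the protein-coding scale, where Botox 4 was at 0.0951, it did not stand apart in this way.

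Fth1 in deposited TPM was 109, 113, 116 and 47.7 in Botox 1 to 4, with Botox 4 far below the others (gap 0.895 of the range). On the protein-coding scale Botox 4 was at 110, inside the range of the group. Chance sets about 1 in 20 groups apart by this measure, and 10 genes were looked at on several scales.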

How the results depend on the processing

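None of the members was called under any alternative run. Over all genes limma called 1 higher and 0 lower. It called 0 higher on deposited TPM, with nuclear protein-coding genes rescaled to a fixed total, with a filter of 5 TPM, without Botox 2 and Botox 4, and from estimated reads with or without these libraries. With no filter it called 41 lower, and leaving out each library in turn gave 0 to 3 higher and 0 to 30 lower, the highest counts without Botox 1. Replicate numbers did not pair the libraries (correlations of same-numbered libraries 0.10, -0.03 and -0.19, separate mice); with a replicate block 0 genes were called higher and Srxn1 turned to -0.019.

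The direction of several members turned, none of them called. On deposited TPM Srxn1 was -0.56, Fth1 -0.55, Ftl1 -0.40 and Gclc -0.26; with nuclear protein-coding genes rescaled Srxn1 was -0.31, Fth1 -0.26 and Ftl1 -0.12; with quantile normalization Srxn1 was -0.031. Txnrd1 was 0.0016 with a pseudocount of 5. Without Botox 2 and Botox 4 Fth1 was -0.034 and Ftl1 -0.11, and from estimated reads -0.0055 and -0.085. Leaving out 1 library gave Hmox1 -0.33 to 0.30, Txnrd1 -0.065 to 0.10, Srxn1 -0.022 to 0.18 and Nqo1 -1.63 to 0.44. Hmox1 was 0.30 without PBS 3, 0.28 without Botox 1 and 0.14 without Botox 3; Txnrd1 was 0.03 without PBS 3 and 0.10 without Botox 3; Srxn1 was -0.022 without Botox 4; Nqo1 was 0.44 without PBS 1 and 0.03 without Botox 4. The log2 ratio Fth1/Ftl1 was 0.079 without Botox 2 and Botox 4, Slc7a11/Slc3a2 was 0.31 with a pseudocount of 1, and Hmox1/Blvrb ran from -0.47 to 0.20 with 1 library left out (0.16 without PBS 2, 0.05 without PBS 3, 0.20 without Botox 1). The cause of these turns was not tested. Depth limits Nqo1 most, with at most 21 reads per library.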
